A study of Drosophila melanogaster with 3 samples.

Results

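The chromatin occupancy of a GFP-tagged Scute protein was examined at 9 genes that encode HMG-box, interband and insulator proteins of Drosophila melanogaster: HmgZ, HmgD, Dsp1, Chro, BEAF-32, CTCF, su(Hw), Cp190 and mod(mdg4). Chromatin immunoprecipitation with sequencing was performed with an antibody against GFP on whole embryos of a transgenic line that stably carries the sc-eGFP fusion, with the GFP at the C-terminus. The embryos were 0 to 14 h old and of both sexes, and 3 biological replicates formed 1 group, so there was no second condition to compare. Every replicate carried the fusion, and whole embryos mix all cell types of those stages, so a region cannot be assigned to any one tissue. Read depth is unknown, because the region lists hold no read counts. The 9 genes were 9 of 13945 protein-coding genes, and a region was assigned to a gene when its summit lay in the gene body or within 2 kb upstream of the outermost start. The genes were selected by name with their measured regions already known, so the signals and ranks of their regions are a description, with no test.

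Of the 9 genes, 6 held a region of the authors' thresholded list: HmgZ, HmgD, Dsp1, Chro, Cp190 and mod(mdg4). Across all protein-coding genes the share was 20.5% (2858 of 13945). The list was selected by the irreproducible discovery rate (IDR), a measure of reproducibility between replicates. Of its 3612 regions, 2256 were among the 3612 highest of all 3 replicates, so a listed region was not always high in each. The 6 genes held 7 of the 3612 thresholded regions, because HmgZ and HmgD overlap and share both of theirs. BEAF-32 and CTCF held a pooled region only below that threshold, and su(Hw) held none in the pooled list. Each list was ranked by the authors' signal, with rank 1 the strongest. In the list made from the replicates pooled together, Chro held the region of rank 8 and the shared HmgZ and HmgD intron the region of rank 12.

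Scute is a proneural basic helix-loop-helix transcription factor that, as a dimer with Daughterless, binds E-box sequences and promotes neural precursor fate. HMG-box proteins bind the minor groove of DNA and bend it, with little sequence preference in the HMGB type and with sequence specificity in others such as the Sox factors. HmgD and HmgZ are small chromatin proteins of the HMGB type with a single box, and Dsp1, related to vertebrate HMGB1, acts with Dorsal as a co-repressor. Insulator proteins separate neighbouring regulatory domains. BEAF-32, CTCF and su(Hw) recognise DNA directly, Cp190 and mod(mdg4) are BTB-domain cofactors recruited through them, and Chro (also called Chriz) is a chromodomain protein of polytene interbands that works with the kinase JIL-1.

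The sequences of 5 member regions, which lie between or beside gene starts, are shown. Of these, only the Dsp1 and upstream mod(mdg4) stretches hold E-boxes found in the motif search. All 5 stretches are from the dm6 genome, on the plus strand and 5′ to 3′, and all lie outside annotated exons. The Chro and internal mod(mdg4) stretches do not contain the summits of their regions, which lie in exons, and the other 3 do. They are 104 bases of 3L:22878985-22879088 between the starts of Chro and Ssl1, 280 bases of 3R:15275242-15275521 between the starts of Cp190 and CG4338, 300 bases of X:16332835-16333134 upstream of Dsp1, 120 bases of 3R:21365489-21365608 inside the mod(mdg4) locus, and 186 bases of 3R:21378698-21378883 upstream of mod(mdg4). Capitals mark an initiator (TCAGTT) at Chro, a BEAF-32 core (CGATA) at Cp190, and at Dsp1 a proneural heptamer (GCAGCTG, in reverse complement), a TATA box (TATAAA) and an E-box (CATATG). At the upstream mod(mdg4) region they mark TATA boxes on either strand and a CATATG E-box. The internal mod(mdg4) stretch held none of the 13 motifs searched.
Chro: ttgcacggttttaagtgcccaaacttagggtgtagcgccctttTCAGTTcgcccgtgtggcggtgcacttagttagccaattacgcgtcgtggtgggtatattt
Cp190: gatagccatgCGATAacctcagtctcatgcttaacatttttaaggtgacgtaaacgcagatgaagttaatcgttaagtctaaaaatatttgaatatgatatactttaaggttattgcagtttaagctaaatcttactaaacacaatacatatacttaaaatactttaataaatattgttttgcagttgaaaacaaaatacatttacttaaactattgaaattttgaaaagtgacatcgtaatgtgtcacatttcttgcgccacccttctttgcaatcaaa
Dsp1: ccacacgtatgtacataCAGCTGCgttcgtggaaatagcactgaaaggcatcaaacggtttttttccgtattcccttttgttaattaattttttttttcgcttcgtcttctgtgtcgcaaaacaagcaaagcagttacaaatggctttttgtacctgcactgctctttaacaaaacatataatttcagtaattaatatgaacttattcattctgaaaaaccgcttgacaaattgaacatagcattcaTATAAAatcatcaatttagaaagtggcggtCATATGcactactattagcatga
mod(mdg4) internal: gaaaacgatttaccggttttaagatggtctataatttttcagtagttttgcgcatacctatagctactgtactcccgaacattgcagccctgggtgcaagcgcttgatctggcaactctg
mod(mdg4) upstream: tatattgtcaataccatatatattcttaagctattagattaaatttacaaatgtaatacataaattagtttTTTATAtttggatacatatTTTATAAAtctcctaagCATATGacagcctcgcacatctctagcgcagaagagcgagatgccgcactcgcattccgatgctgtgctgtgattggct

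All 7 member regions had a matched region in each of the 3 replicate lists, and 6 of the 7 were among the 3612 highest of every replicate, against 62.5% (2256) of the 3612 thresholded regions. The exception was the weaker HmgZ and HmgD region, which passed in replicate 3 only. The other 6 had pooled ranks of 8 to 772 in a list made from the same replicates, so the contrast restates their high signal. To set the lists side by side, each signal was divided by the median signal of the 3612 highest regions of its own list, which was 69.9, 94.2 and 75.9 in replicates 1, 2 and 3. The mean of this relative signal was 7.85 ± 0.433 at Chro, 6.57 ± 0.378 at the shared HmgZ and HmgD intron, 3.54 ± 0.304 at Cp190 and 2.53 ± 0.322 at Dsp1 (SD, n = 3). It was 1.94 ± 0.106 at the internal and 1.63 ± 0.151 at the upstream region of mod(mdg4), and 0.661 ± 0.103 at the weaker HmgZ and HmgD region. The values of neighbours in this order did not overlap over the replicates, and the order of the 7 regions was the same in all 3 lists. Of the 7 regions, 6 were placed lower in replicate 2 than in the other two replicates. No such share over all thresholded regions is given, so this cannot be called particular to these regions.

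**Figure D1:**
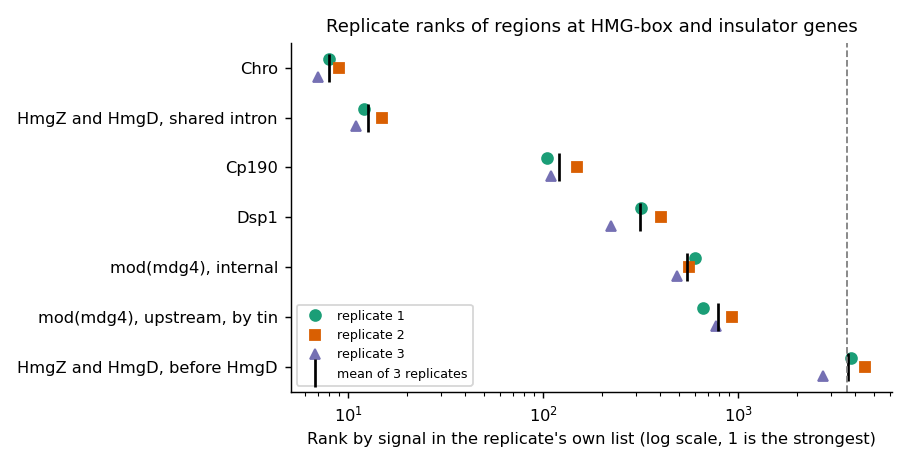
Rank by signal of each of the 7 member regions in replicates 1, 2 and 3, on a log scale on which 1 is the strongest; black bars are the mean of 3 replicates and the dashed line is rank 3612. Chro sits at ranks 7 to 9 and the shared HmgZ and HmgD intron at ranks 11 to 15, and only the region before HmgD crosses the dashed line.

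HmgZ (FBgn0010228, 2R:21697488-21707861, minus strand) and HmgD (FBgn0004362, 2R:21701458-21716727, plus strand) are transcribed in opposite directions, and the 5′ part of each lies inside the other. The strongest HMG-box region, 2R:21703177-21703658, had its summit at position 21703397, in an intron of both genes. That summit was 567 bp upstream of the HmgZ start used by 2 of its 4 transcripts and 1939 bp inside HmgD. Its signal was 485, 583 and 500 in replicates 1, 2 and 3, which gave ranks 12, 15 and 11. The replicates were thus close together near the top of every list. Its pooled signal was 1558, 10 times that of the second region of these genes. The replicate summits spanned 86 bp, the widest span of the 7 regions. A second summit lay 232 bp away in replicate 1 (signal 58.6, rank 2381) and 200 bp away in replicate 2 (signal 169, rank 622), and none lay within 300 bp in replicate 3.

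The second HmgZ and HmgD region, 2R:21700635-21701064, lay 608 bp upstream of the outermost HmgD start and in an intron of HmgZ. Its pooled signal was 155.5 and its pooled rank 3322, near the end of the thresholded list, whose lowest signal was 146. In replicates 1, 2 and 3 its signal was 43.9, 54.7 and 58.9, with ranks of 3804, 4480 and 2741. Its q-value was 0.0164, 0.00971 and 0.000149 in the same lists, under 5% in each. The pooled list held 12 regions in HmgZ and 14 in HmgD, of which 3 had a q-value under 5%, and HmgZ and HmgD counted the same 2 thresholded regions.

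**Figure D2:**
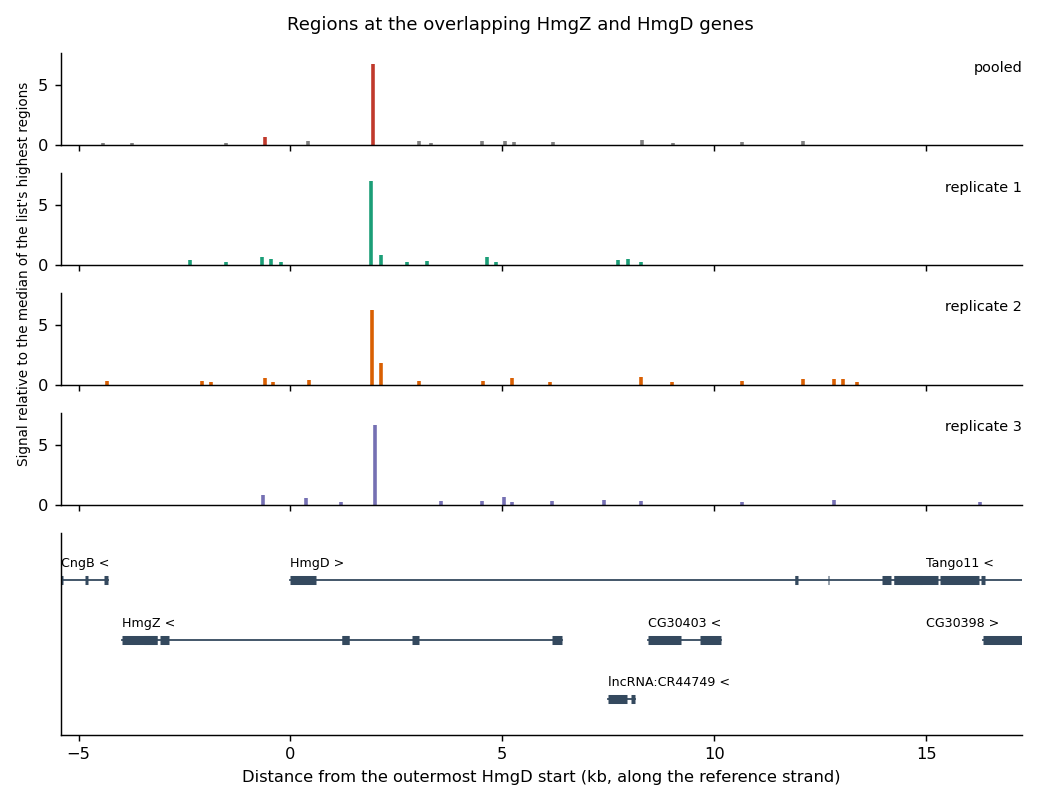
Signal of listed regions around HmgZ and HmgD, relative to the median of the 3612 highest regions of the same list, in the pooled list and the 3 replicates, against distance from the outermost HmgD start in kb; red bars are thresholded regions and boxes are exons. The tallest bar in every list is at 1.94 kb, between 6.19 and 6.95 times the median in the replicates. The next tallest is its second summit in replicate 2, at 2.13 kb and 1.8 times the median, and the remaining bars are under the median.

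Dsp1 (FBgn0278608, X:16333612-16340624, plus strand) held a single thresholded region, X:16332821-16333154, with its summit 627 bp upstream of the start used by 6 of its 7 transcripts. The signal was 174, 210 and 218 in replicates 1, 2 and 3, with ranks of 316, 404 and 222. Replicate 3 ranked it highest and replicate 2 lowest, and it stayed among the 3612 highest in each. The start of CG9921 (FBgn0030743), on the opposite strand, is only 12 bp from that of Dsp1, and the summit lay 615 bp inside CG9921 in an intron. The signal therefore belongs to the territory of both genes by the rule. Its pooled signal of 594.8 (rank 299) was 8.91 times that of the next Dsp1 region (rank 11472). That next region, with its summit at 16335267, had a nearby summit in replicate 2 (16335266, signal 42.0, rank 7153) and in replicate 3 (16335351, signal 56.5, rank 2929). A second summit 200 bp from the main one was listed in replicate 2 only, with a signal of 66.5, rank 3254 and a q-value of 0.000461.

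Chro (FBgn0044324, 3L:22873702-22878984, minus strand) held the strongest member region, 3L:22878709-22879115, and no other region in the pooled list or in any replicate. Its signal was 564, 693 and 616 in replicates 1, 2 and 3, with ranks of 8, 9 and 7 and a pooled signal of 1869. The 3 replicate summits lay within 16 bp, the narrowest span of the 7 regions. The pooled summit at 22878917 was in the 5′ UTR, 67 bp inside the outermost start, which 1 transcript uses, and 149 bp upstream of the start that 3 of the 5 transcripts use. Ssl1 (FBgn0037202), which encodes a TFIIH subunit, starts 105 bp away on the opposite strand, and its start was 172 bp from the summit. The region thus covered the starts of a divergent pair.

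The 3 genes of insulator proteins that bind DNA directly held no thresholded region. The searched span of a gene is its body with 2 kb upstream. These 3 genes had the smallest spans of the 9, at 4162 bp for BEAF-32, 5136 bp for CTCF and 6135 bp for su(Hw). The other spans ran from 6810 bp at Cp190 to 28556 bp at mod(mdg4). Whether span length accounts for the split was not tested. Most protein-coding genes held none either, since 20.5% held one, a share not matched for span. Other genes of DNA-binding insulator proteins, listed below, included some with a thresholded region, such as Trl and M1BP, and some without, such as ZIPIC and dwg. At CTCF (FBgn0035769, 3L:7353578-7356713, minus strand) the only pooled region lay 63 bp inside the start with a signal of 142.7, a q-value of 0.00121 and rank 3732, so it was 120 ranks past the end of the thresholded list. The best CTCF region had signals of 25.7, 59.6 and 52.2 and ranks of 10229, 3887 and 3271 in replicates 1, 2 and 3. Replicate 1 was far lower than the others in rank, with a q-value of 0.356. BEAF-32 (FBgn0015602, 2R:14770469-14772630, plus strand) had 6 pooled regions, the best at rank 6293 with a signal of 98.2 and a q-value of 0.0412, 42 bp before the first start. The next, at rank 6426, was 44 bp from the third of its starts. The best region in replicates 1, 2 and 3 had signals of 32.5, 38.2 and 47.2 and ranks of 6386, 8564 and 3787, and these lay at different positions. The site of the best pooled region was listed in all 3 replicates, at ranks 10343, 10162 and 3787. At su(Hw) (FBgn0003567, 3R:14304455-14308589, minus strand) replicate 1 listed a region of rank 9885 at 249 bp upstream and replicate 2 a region of rank 9488 at 175 bp upstream, with q-values of 0.335 and 0.179, and replicate 3 listed none. Over all 9 genes, 8 held a pooled region with a q-value under 5%, against 29.6% of protein-coding genes (4127 of 13945). A pooled region of any q-value was also held by 8 of the 9, against 59.9% of protein-coding genes (8356).

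**Figure D3:**
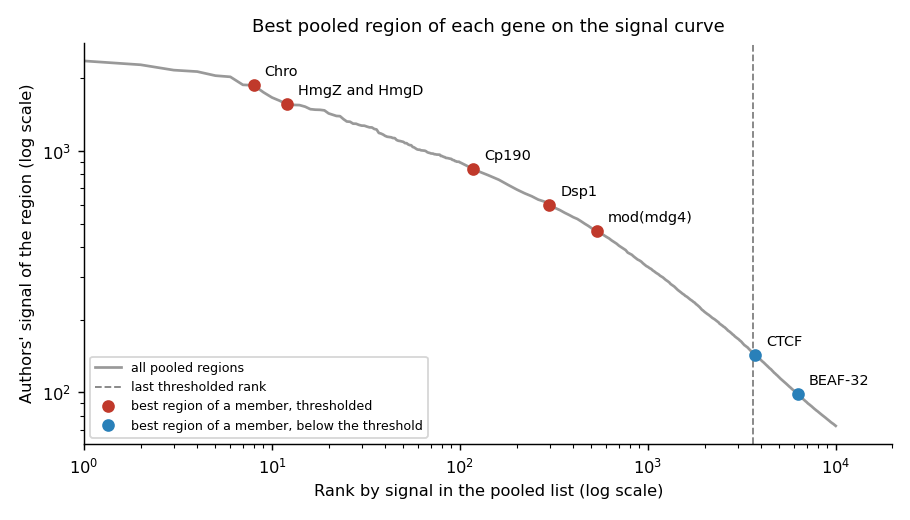
Authors' signal against rank in the pooled list, both on log scales, with the best region of each member on the curve of all pooled regions; the dashed line is the last thresholded rank, 3612. Red points run from Chro at a signal of 1869 to mod(mdg4) at 465.3, and the blue points of CTCF (142.7) and BEAF-32 (98.2) lie past the line; su(Hw) has no pooled region and is not drawn.

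The 2 cofactor genes lie on 3R and differed in how their regions were placed. Cp190 (FBgn0000283, 3R:15270432-15275241, minus strand) held 1 region in the pooled list, 3R:15275209-15275577, between its own start and that of CG4338 (FBgn0038313), a divergent gene whose start is 281 bp away. The summit was 142 bp upstream of Cp190 and 139 bp upstream of CG4338, near the middle of the gap. Its signal was 263, 301 and 279 in replicates 1, 2 and 3, with ranks of 105, 149 and 110 and a pooled rank of 118. A second, lower summit stood 200 bp away in replicate 1 (rank 1756) and 202 bp away in replicate 3 (rank 2266).

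mod(mdg4) (FBgn0002781, 3R:21350846-21377401, minus strand) is known for trans-splicing, in which its common 5′ exons are joined to 3′ exons transcribed from separate units. The annotation lists 22 transcripts that all begin at 1 start, and 23 protein-coding entries named pre-mod(mdg4) for those units. Neither of its thresholded regions lay at its start. The internal region, 3R:21365254-21365683, had its summit 11932 bp inside the gene in an intron and 19 bp inside pre-mod(mdg4)-E, in its 5′ UTR. Of the 23 units, 10 had the summit in their territory and 10 had a start within 500 bp of it. In 7 of these, on the plus strand (AD, AE, U, V, W, X and Y), the start was 140 bp from the summit, and AB, C and E, on the minus strand, have a start 179 bp away. The signal of the internal region was 131, 178 and 156 in replicates 1, 2 and 3, with ranks of 600, 563 and 487. The ranks had an SD of 57.6 around a mean of 550, and the pooled rank was 537.

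The upstream mod(mdg4) region, 3R:21378698-21378883, lay 1364 bp before the mod(mdg4) start but 212 bp before that of tin (FBgn0004110), which encodes the NK homeodomain factor Tinman of heart and visceral muscle. The mod(mdg4) and tin starts are divergent and 1576 bp apart. Its signal was 124, 139 and 125, with ranks of 663, 927 and 772 in replicates 1, 2 and 3. The region was weaker than the internal one in every replicate. A region 71 bp from the mod(mdg4) start was listed in the pooled list at rank 9328 with a q-value of 0.187, and a region 942 bp inside the gene at rank 5868 with a q-value of 0.0284, so the start itself was not among the regions that passed the threshold.

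**Figure D4:**
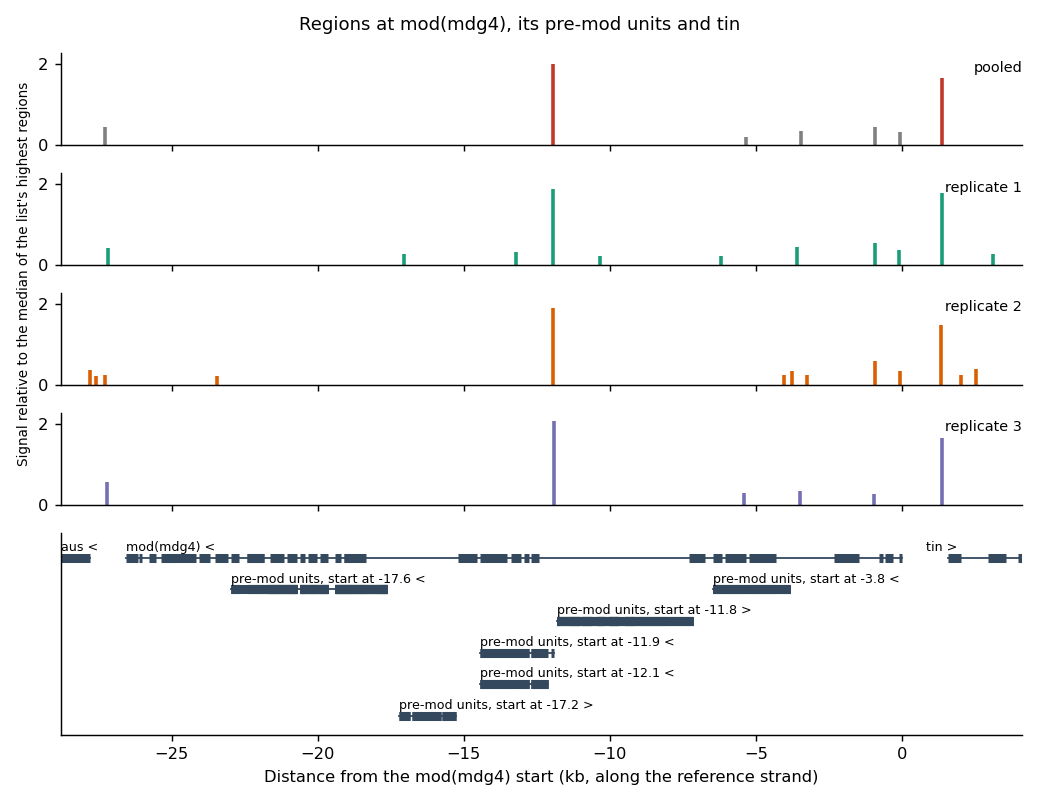
Signal of listed regions across mod(mdg4), relative to the median of the 3612 highest regions of the same list, in the pooled list and the 3 replicates, against distance from the mod(mdg4) start in kb; red bars are thresholded regions, boxes are exons, and pre-mod units that share a start are drawn as 1 line labelled with that start. The bars inside the gene (1.87 to 2.06 in the replicates) and by tin (1.47 to 1.77) are the tallest in every list, and the bar at the mod(mdg4) start is low.

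In position, 4 of the 7 summits lay within 500 bp of a protein-coding start (Chro, Cp190 and both of mod(mdg4)), against 37.8% of the thresholded regions (1364 of 3612). The other 3, of HmgZ, HmgD and Dsp1, were 567, 608 and 615 bp from the nearest one, so all 7 lay within 1000 bp. No share of all thresholded regions within 1000 bp is given. The assignment window of 2 kb upstream favours summits near starts, so these counts are a description only. The nearest start belonged to a gene other than the 9 at 4 of the 7: CG4338, CG9921, tin and pre-mod(mdg4)-E. With the upstream limit of 2 kb, the farthest thresholded summit inside it was that of mod(mdg4) at 1364 bp. The nearest outside it was 3761 bp upstream of CTCF (rank 3494), followed by a stronger one 5964 bp upstream of Cp190 (rank 814, signal 372.7).

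The base composition of the 7 windows of 100 bp on each side of the summit averaged 34.0 ± 7.03% GC (SD, n = 7), against 34.7 ± 6.9% in all 3612 windows. The windows differed widely among themselves. Cp190 had 23.9% GC, and only 3.54% of all windows were lower, whereas the weaker HmgZ and HmgD window had 46.3%, and 93.5% were lower. The stronger HmgZ and HmgD window had 35.8%, Chro 38.3%, Dsp1 30.8%, and mod(mdg4) 31.8% inside and 31.3% upstream.

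Both strands of these windows were searched for 13 motifs, and a match is a description of the letters. The proneural heptamer (GCAGCTG or GCAGGTG), known for dimers of Achaete or Scute with Daughterless, was in 0 of the 7 windows, against 4.62% of all windows. The E-box CAGCTG, contained in the first form of the heptamer, was also in 0, against 7.86%. The E-box CATATG was in 1, the upstream mod(mdg4) window, 43 bp from the summit, against 8.44%. With whole regions in place of windows, the proneural heptamer was in 1 of 7, at Dsp1 and 130 bp from the summit, against 10.2% of the 3612 regions. Dsp1 also held CATATG on the other side, again 130 bp from the summit, and 13.5% of all regions held that E-box. These are the E-boxes in capitals in the sequences shown. Other CANNTG forms were not searched, so a window without a match may still hold an E-box.

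Among sites of the members' own proteins, the BEAF-32 core CGATA was in 2 of 7 windows, against 23.6% of all windows. One was at Chro, 23 bp from the summit, and the other at the weaker HmgZ and HmgD region, 61 bp from it. Over whole regions it was in 3 of 7, against 38.2%, because Cp190 held 3 copies 129 to 143 bp from the summit. At Cp190 a DRE (TATCGATA, the Dref site), which overlaps 2 of these copies, was 141 bp from the summit; 3.35% of all regions held one. The CTCF core AGNNGGCGC was in 1 window, the weaker HmgZ and HmgD region, against 2.27%. The su(Hw) core GCATACTT was in 0, against 1.41%. The TATA box was in 3, at the stronger HmgZ and HmgD region, Chro and the upstream mod(mdg4) region, against 38.7%. The TAGteam site CAGGTAG, the GATA site (TGATAA or AGATAA), the GAGA repeat (GAGAGAG), motif 1 (GGTCACACT) and the initiator (TCAGTT) were in 0 windows, against 1.14%, 30.9%, 3.57%, 0.692% and 12.8% of all windows.

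The 9 genes were set beside other genes of the same families, again listed with earlier results known. Of 18 other HMG-box genes, 6 (33.3%) held a thresholded region, against 20.5% of all protein-coding genes (2858 of 13945). The median over these 6 genes was 600.5 for the mean replicate rank of the best region, against 1587 over the 2858 protein-coding genes with one. The Sox-family gene Sox14 ranked highest, at 49, 123 and 120 in replicates 1, 2 and 3, with its summit 257 bp from its start. It was followed by bbx (ranks 136, 290 and 153), Sox102F (636, 452 and 341), cic (793, 557 and 824), which encodes the repressor Capicua, and Sox100B (1259, 1941 and 1910). No other HMG-box gene therefore reached the ranks of the HmgZ and HmgD intron in any replicate. Ssrp, Bap111, polybromo and TFAM, which encode subunits of chromatin complexes and a mitochondrial factor, had no region in the pooled list. A pooled region was held by 14 of the 18, against 59.9% of all protein-coding genes.

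Of 27 other insulator, cohesin and interband genes, 9 (33.3%) held a thresholded region, against 20.5% of all protein-coding genes. The median of the mean replicate rank over these 9 genes was 660.3. The highest was Trl, which encodes the GAGA factor, at ranks 16, 18 and 18 and with 5 thresholded regions. JIL-1, the kinase partner of Chro, had ranks of 226, 231 and 216, with its summit 7086 bp from the nearest JIL-1 start. M1BP (264, 758 and 618), SA1 (391, 609 and 863), a cohesin subunit gene, and shep (905, 640 and 436) followed. The nearest start was that of another gene for 6 of the 9, as at Cp190. Elba1, Elba2, Elba3, insv, HIPP1, SMC1, SMC3, ZIPIC, dwg and l(3)mbt had no pooled region, which was also the case for su(Hw). A pooled region was held by 17 of the 27, near the 59.9% of all protein-coding genes, so its absence is not particular to this list.

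**Figure D5:**
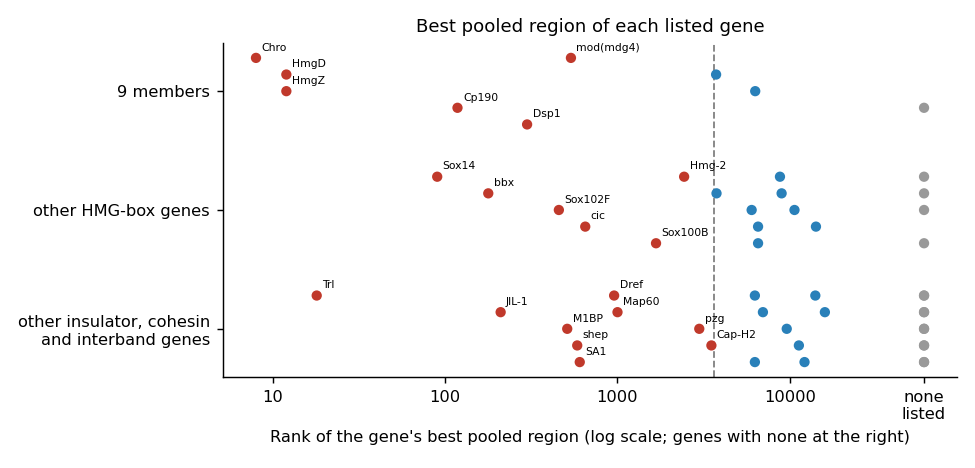
Rank of the best pooled region of each gene in the 9 members, 18 other HMG-box genes and 27 other insulator, cohesin and interband genes, on a log scale; red points are genes with a thresholded region, blue points genes with a pooled region only, grey points genes with none, the dashed line is rank 3612, and vertical position within a row only separates points. Chro at rank 8 and HmgD and HmgZ at rank 12 are left of every point of the other lists, of which Trl at rank 18 is the nearest.

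Genes outside the 9 whose best region ranked most like the HmgZ and HmgD intron were sought by the summed absolute difference in log2 rank over the 3 replicates. They were cno, which encodes Canoe of adherens junctions (0.914, ranks 11, 19 and 15), and CHMP2B and Tcs5, which share a region (1.07, ranks 20, 16 and 13). For Chro they were Ssl1, by the shared region itself (0), ph-p, which encodes a Polycomb group protein (1.27, ranks 9, 6 and 10), and CG11050 (1.49, ranks 6, 5 and 6). Likeness over 3 ranks says only that these regions were about as strong in the same lists.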

How the data were processed

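The authors deposited region lists in narrowPeak layout: a list for each of the 3 replicates, a pooled list and a thresholded list selected by IDR. Per the text files deposited with each sample, a control alignment was among the inputs, and it was not analysed here. The signal of each region is the authors' value, on a scale of its own list and not normalized between libraries. The deposited −log10 q-value was turned back into a q-value, and the deposited summit offset, a distance in bp from the region's start, gave summit positions. The name of the aligner or peak caller is not given in the sources used here. With no depth, no interval on a signal can be given. The dm6 lists were used; the dm3 lists were not, since no genome of that build was at hand.

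The region ends lay within the chromosome lengths of the Release 6 genome, whose sequence was used with Ensembl release 115 gene models; positions are 1-based. A replicate region was matched to the thresholded region that was its nearest thresholded summit within 250 bp, with the highest signal kept. Mean and SD are over 3 replicates. Overlapping and divergent genes share regions by the rule on territories. The matching and assignment steps were tested on simulated data, where they recovered the planted answers. The motif search was not tested in this way. Analyses used Python 3.11.15, numpy 2.4.6 and pandas 2.3.3, and plots matplotlib 3.10.9.

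The members, gene lists, motifs and rules were chosen with earlier results of these data known. Genes named beyond the 9 were those sharing a member region, up to 5 per wider list by mean replicate rank, and 3 most alike in rank to each of the strongest HMG-box and interband regions. The text also names the wider-list genes with no pooled region, chosen after their values were seen. Alternatives were the gene body alone, 5 kb on both sides, the nearest start, other lists and thresholds, another start distance, other motif windows, and leaving out each replicate.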

Additional observations from a re-analysis of the deposited data

How the results depend on the processing

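The counts moved with the rule that assigns regions to genes. Of the 9 genes, 6 held a thresholded region. The count was 4 with the gene body alone, and 3 when a region went only to the gene with the nearest start. The 7 member regions became 4 with the gene body alone, 3 by the nearest start and 12 with pooled regions at a q-value under 5%. The 6 other HMG-box genes became 3 with the gene body alone, 11 with 5 kb on both sides and 9 by the nearest start. The 9 other insulator genes became 3 with the gene body alone and 3 by the nearest start. The main rule gave 6 of 9 members against 6 of 18 other HMG-box genes. That order was reversed by the nearest start, with 3 of 9 against 9 of 18. No share of all protein-coding genes is given for these other assignment rules, so the counts show only that the rule moves them. The thresholded list cannot be remade without a replicate, so in its place only thresholded regions among the 3612 highest of both other replicates were kept. This added filter kept 6 of the 7 member regions and all 6 genes for each replicate left out, 5 to 6 other HMG-box genes and 7 other insulator genes, and it does not show how far the list itself depends on a replicate. The 4 regions at a start became 7 within 1000 bp, a distance for which no share of all thresholded regions is given. The 7 matches of a motif in a window became 16 over whole regions and 4 within 50 bp of the summit. No paired analysis was possible because there was only 1 group. Depth is unknown, so its limits cannot be given.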
